A study of Mus musculus with 2 samples.

Results

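Growth hormone (Gh), prolactin (Prl), pro-opiomelanocortin (Pomc), the glycoprotein hormone subunits Cga, Tshb, Lhb and Fshb, the transcription factor Pou1f1 and the receptor Ghrhr make up a set of 9 pituitary genes, described here in the heads of newborn mice. The members are all probe sets whose single platform gene symbol is one of these 9 names. Such a probe set was found for 8 of the 9 genes, of 18193 genes in all, and the 8 genes have 12 probe sets, 4 of them for Gh. Pou1f1 had none and is not analysed here. RNA from the whole head was measured on 2 Affymetrix arrays, 1 for each genotype. In the newborn MatDp(dist2) head, chromosome 2 distal of the T11H translocation breakpoint was present as 2 maternal copies and distal chromosome 9 as 2 paternal copies. The newborn PatDp(dist2) head carried the same parts with the parental origins exchanged. Both came from carriers of the T(2:9)11H translocation, and neither group is a wild type. The heads are called MatDp(dist2) and PatDp(dist2) from here on. The sources used here do not give the sex of the mice or the number of animals behind each sample.

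The anterior pituitary is a small gland at the base of the brain, and each of its hormone cell types is known for its own product. Somatotrophs make growth hormone, lactotrophs prolactin, thyrotrophs thyrotropin, gonadotrophs luteinizing and follicle-stimulating hormone, and corticotrophs the Pomc precursor of corticotropin. Pou1f1 is required for the first 3 of these cell types, while corticotrophs and gonadotrophs arise without it. Growth hormone releasing hormone from the hypothalamus acts on somatotrophs through Ghrhr, and somatostatin restrains them.

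The promoter windows of Prl and Pou1f1, genes of the Pou1f1 lineage, and of Pomc, a gene outside it, are shown. The windows run from 250 bases before to 50 bases after the RefSeq start site on GRCm38.p6. At least 1 window was available for 7 of the 9 members, and none for Gh or Ghrhr. Capitals mark ATGNATA or its reverse complement TATNCAT, a core of the sequence bound by Pou1f1, searched on both strands. Prl is at chr13:27057320-27057619 on the plus strand, Pou1f1 at chr16:65520262-65520561 on the plus strand, and Pomc at chr12:3954695-3954994 on the plus strand.
Prl: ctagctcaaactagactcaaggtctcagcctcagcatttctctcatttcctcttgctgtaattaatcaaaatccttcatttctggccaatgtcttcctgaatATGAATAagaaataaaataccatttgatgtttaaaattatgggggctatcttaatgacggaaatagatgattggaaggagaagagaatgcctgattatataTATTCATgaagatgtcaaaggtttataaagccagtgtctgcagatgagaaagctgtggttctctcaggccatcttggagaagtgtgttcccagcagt
Pou1f1: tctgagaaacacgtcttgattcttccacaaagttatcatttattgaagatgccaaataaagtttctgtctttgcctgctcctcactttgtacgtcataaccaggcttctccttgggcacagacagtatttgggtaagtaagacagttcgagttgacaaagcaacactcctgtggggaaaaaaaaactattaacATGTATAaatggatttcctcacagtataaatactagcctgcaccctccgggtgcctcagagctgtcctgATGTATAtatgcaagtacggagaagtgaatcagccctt
Pomc: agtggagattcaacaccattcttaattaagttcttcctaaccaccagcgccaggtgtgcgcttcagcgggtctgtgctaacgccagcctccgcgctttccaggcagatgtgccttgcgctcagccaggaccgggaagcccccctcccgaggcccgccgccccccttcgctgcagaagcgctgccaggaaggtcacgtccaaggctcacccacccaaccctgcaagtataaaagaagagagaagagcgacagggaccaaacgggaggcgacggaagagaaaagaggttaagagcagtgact
The Prl window holds 2 matches, which begin 148 and 47 bases before the start site. The Pou1f1 window also holds 2, which begin 57 bases before and 12 bases after it, and a further Pou1f1 window holds 0. No match was found in the windows of Pomc, Cga, Tshb, Lhb and Fshb, and 8.84% of 32851 windows of this length hold at least 1. Tshb is a thyrotroph gene and so belongs to the Pou1f1 lineage, which the matches therefore do not separate from the other genes. A match in a window is a description of its letters, and Pou1f1 binding was not measured.

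Each value below is a MAS5 signal, the linear brightness that Affymetrix software summarises for a probe set. Both arrays had the same trimmed mean of 500.002, and 51.6% of probe sets in MatDp(dist2) and 48.3% in PatDp(dist2) reached a floor of 187.05, the midpoint of the 2 array medians, below which a signal was not read as a level. Where 1 head lay below the floor, the fold is a bound taken against the floor ("at least N-fold"), and where both did no fold is given. With 1 array per genotype nothing can be tested against a spread between animals, no p-value is given, and precision is limited by the number of arrays.

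Growth hormone was about 4 times as bright in MatDp(dist2), and Pomc was brighter in PatDp(dist2), by 1.86-fold on the probe set measured in both heads and by at least 1.497-fold on the other. Of the 8 genes with a probe set, 3 reached the floor in at least 1 head: Gh and Pomc in both, and Ghrhr in MatDp(dist2). At least 2-fold higher in MatDp(dist2) was 1 of the 3, Gh, against 4.43% of all 12483 measured genes, and 0 of the 3 were at least 2-fold higher in PatDp(dist2), against 3.47% of all measured genes. No count was read from the other 5 genes, which lay below the floor in both heads. The median log2 ratio of the 3 genes, 0.11, is the bound of Ghrhr, which was 1.40 with a lower floor, and over all measured genes the median was 0.02 with bounds counted. In RNA from a whole head, fewer cells of a type and less RNA per cell cannot be told apart.

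**Figure D1:**
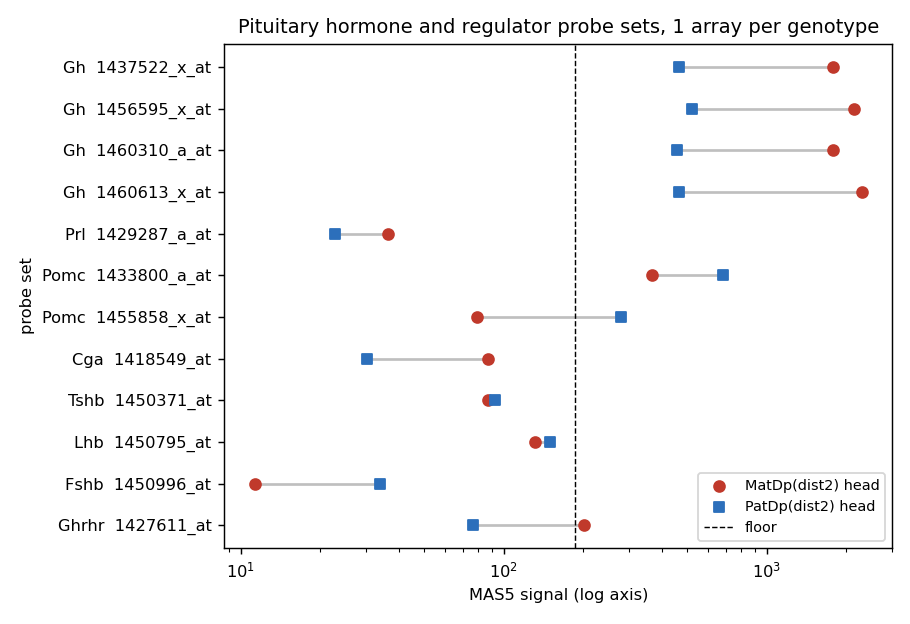
MAS5 signal (log axis) of the 12 probe sets of the pituitary genes in MatDp(dist2) (circles) and PatDp(dist2) (squares), with the floor of 187.05 as a dashed line; each point is 1 array and grey lines join the heads. The 4 Gh probe sets lie between 1786.5 and 2306.3 in MatDp(dist2) and between 454.8 and 518.9 in PatDp(dist2), while Prl, Cga, Tshb, Lhb and Fshb lie below the floor in both.

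Every Gh probe set gave the same direction. Gh encodes growth hormone, the somatotroph product that drives postnatal body growth. Probe set 1437522_x_at had a signal of 1792.1 in MatDp(dist2), against 463.9 in PatDp(dist2), a 3.86-fold difference. Probe set 1456595_x_at had 2145.8 in MatDp(dist2) and 518.9 in PatDp(dist2), a 4.14-fold difference. Probe set 1460310_a_at had 1786.5 in MatDp(dist2) and 454.8 in PatDp(dist2), a 3.93-fold difference. The largest of the 4 differences was that of 1460613_x_at, with 2306.3 in MatDp(dist2) and 464 in PatDp(dist2), 4.97-fold. All 4 probe sets were above the floor in both heads, each was higher in MatDp(dist2), and the median of their folds was 4.03. They read the same gene from the same 2 RNA samples, so the closeness of their folds says nothing about the spread between animals. By Affymetrix naming, the suffix _x_at marks probe sets with probes that may also match other sequences, and 1460310_a_at has no such suffix.

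Among the 11270 genes that reached the floor in both heads, Gh (probe set 1456595_x_at) had the 27th highest ratio of signals, MatDp(dist2) over PatDp(dist2). Genes below the floor in PatDp(dist2) were not ranked, and some had bounds above the Gh ratio. Lens markers, 10 in number and all bounds, had a median of at least 16.6-fold. Of 5497 named probe sets with a mean log2 signal within 0.5 of the Gh range, 3.8% were at least 2-fold higher in MatDp(dist2) and 3.27% in PatDp(dist2). Gh lies on chromosome 11, outside the duplicated parts. None of the 8 genes lies on chromosome 9 or on chromosome 2 from H13 to the distal end, the stretch that stands here for the duplicated part because the labels do not place the breakpoint. Fshb is on chromosome 2, proximal of H13, and the others are on chromosomes 13 (Prl), 12 (Pomc), 4 (Cga), 3 (Tshb), 7 (Lhb) and 6 (Ghrhr).

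The genes closest to Gh in the 2 log2 signals, over 2 arrays, were Idi2, with 2135.8 in MatDp(dist2) against 496.9 in PatDp(dist2), and Cnr1, the cannabinoid receptor of neurons, with 2290.4 in MatDp(dist2) against 582.7 in PatDp(dist2). Myt1l, a neuronal transcription factor, followed with 1929.4 in MatDp(dist2) and 563.9 in PatDp(dist2). The epidermal genes Lce1i and Lgals7 completed the nearest 5, at distances of 0.24 each on the log2 scale, where Idi2 stood at 0.06. With 2 arrays, likeness of pattern is a likeness of a single ratio and a single level.

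**Figure D2:**
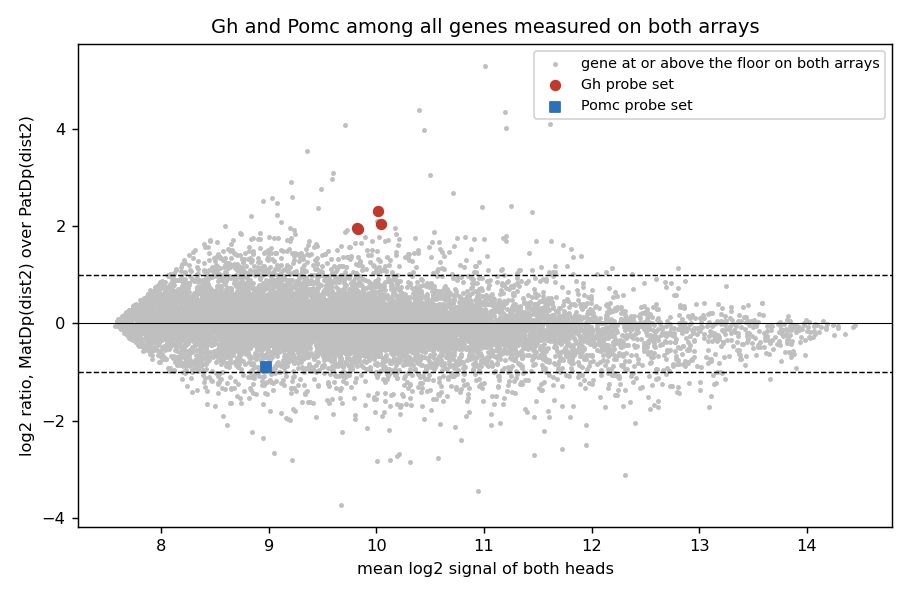
Log2 ratio of signals, MatDp(dist2) over PatDp(dist2), against the mean log2 signal of both heads, for the 11270 genes that reached the floor in both heads (grey, brightest probe set per gene), the 4 Gh probe sets (circles, 2 of them nearly superimposed) and the brighter Pomc probe set (square); dashed lines mark 2-fold. Gh lies between 1.95 and 2.31, above the 2-fold line, and Pomc at -0.89, inside it.

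Pomc encodes the precursor that corticotrophs and melanotrophs cut into corticotropin and melanocyte-stimulating hormone, and neurons of the hypothalamus make it too. Probe set 1433800_a_at had a signal of 367.9 in MatDp(dist2), against 683.2 in PatDp(dist2), 1.86-fold higher in PatDp(dist2). Probe set 1455858_x_at had 79, below the floor, in MatDp(dist2) and 280 in PatDp(dist2), at least 1.497-fold higher in PatDp(dist2). Both probe sets were therefore brighter in PatDp(dist2), opposite to Gh. Under quantile normalization 1433800_a_at passed 2-fold, at 2.01-fold. With the floor at the 30th percentile, both signals of 1455858_x_at counted and its difference was 3.54-fold. Of 5589 named probe sets with a mean log2 signal within 0.5 of 1433800_a_at, 3.54% lay as far towards PatDp(dist2) or farther.

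Ghrhr, the somatotroph receptor for growth hormone releasing hormone, had a signal of 201.6 in MatDp(dist2), against 76.4, below the floor, in PatDp(dist2). Its direction was that of Gh, but its bound was only 1.08-fold because the MatDp(dist2) signal barely passed the floor. With the floor at the 30th percentile of the arrays, a signal of 75.1, both values counted and the difference was 2.64-fold.

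The remaining hormone genes lay below the floor in both heads, and their levels cannot be compared. Prl, the lactotroph hormone, had a signal of 36.3 in MatDp(dist2), against 22.9 in PatDp(dist2). Cga, the alpha subunit shared by the glycoprotein hormones, had 87.5 in MatDp(dist2) and 30.3 in PatDp(dist2). For Tshb, the specific subunit of thyrotropin, the signals were 87.2 in MatDp(dist2) and 92.5 in PatDp(dist2). These 3 genes thus gave no reading of lactotrophs or thyrotrophs, the cell types that share Pou1f1 with somatotrophs. Lhb, the beta subunit of luteinizing hormone, had 132 in MatDp(dist2) and 150.1 in PatDp(dist2). Fshb, that of follicle-stimulating hormone, had 11.3 in MatDp(dist2) and 33.8 in PatDp(dist2).

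Other genes of the axis were described in 6 lists, of which 70 of 79 entries had a probe set and 44 were measured in at least 1 head. Of these 44, 9 were at least 2-fold higher in MatDp(dist2) and 1 in PatDp(dist2), with a median log2 ratio of 0.35. Counts and medians of these lists take a bound as it stands, so a gene below the floor in 1 head may differ by more than is counted. Over all measured genes the shares were 4.43% higher in MatDp(dist2) and 3.47% higher in PatDp(dist2), and the median was 0.02. By any amount, 6485 of the 12483 measured genes were brighter in MatDp(dist2) and 5997 in PatDp(dist2). Many genes of these lists are also expressed by neurons outside the axis, and 10 neuron markers, all brighter in MatDp(dist2), had a median log2 ratio of 1.18. The part of neurons in the values of these lists was not tested.

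Transcription factors of pituitary development were mostly brighter in MatDp(dist2), and those furthest apart are also factors of neurons or neural progenitors. Of 13 measured factors, 4 were at least 2-fold higher in MatDp(dist2) and 0 in PatDp(dist2), with a median log2 ratio of 0.55. Neurod1, a factor of corticotroph and neuronal differentiation, had a signal of 1277.5 in MatDp(dist2), against 227.1 in PatDp(dist2), 5.63-fold. Insm1, a factor of endocrine and neuronal precursors, had 759.7 in MatDp(dist2) and 112.7 in PatDp(dist2), at least 4.06-fold. Six3, needed for the forebrain and the pituitary primordium, had 517.2 in MatDp(dist2) against 219.3 in PatDp(dist2), and its other 2 probe sets lay below the floor in both. Sox2, a factor of neural and pituitary progenitors, was 2.08-fold higher in MatDp(dist2), and the related Sox3 at least 1.83-fold.

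The other 8 measured factors had smaller ratios or bounds. Otx2, a factor of the forebrain and eye, had 316.3 in MatDp(dist2) and 26, below the floor, in PatDp(dist2), at least 1.69-fold. Higher in MatDp(dist2) were also Isl1 by 1.46-fold, the gonadotroph and thyrotroph factors Foxl2 and Gata2 by 1.39-fold and 1.37-fold, the early growth response gene Egr1 by 1.20-fold, and Nr5a1, a gonadotroph factor, by at least 1.06-fold. Pitx1, active in the oral ectoderm from which the gland forms, had 363.2 in MatDp(dist2) and 428.8 in PatDp(dist2). Lhx3, an early factor of the gland, had 183.6, below the floor, in MatDp(dist2) against 212.5 in PatDp(dist2). Tbx19, the factor of the Pomc lineage, was under the floor in both, with 110.9 in MatDp(dist2) and 87.4 in PatDp(dist2), as were Hesx1, Lhx4, Six6 and Neurod4.

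Hypothalamic hormones included the somatotroph inhibitor on the side of Gh. Sst, which encodes somatostatin, had a signal of 968.9 in MatDp(dist2), against 371.9 in PatDp(dist2), 2.61-fold. Npy, a peptide of hypothalamic and cortical neurons, had 1020.3 in MatDp(dist2) and 376 in PatDp(dist2), 2.71-fold. Oxytocin (Oxt) was 1.80-fold higher in MatDp(dist2), with 1450.1 against 804.6 in PatDp(dist2), whereas the galanin gene Gal was 1.47-fold higher in PatDp(dist2). These made 2 of 7 measured genes at least 2-fold higher in MatDp(dist2) and 0 in PatDp(dist2), with a median log2 ratio of 0.24. Ghrh, the releasing hormone itself and a gene of chromosome 2 distal of H13, was under the floor in both heads, with 21.3 in MatDp(dist2) and 71 in PatDp(dist2). Hcrt, which encodes orexin, differed by 1.18-fold.

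Genes of hormone processing and secretory granules were brighter in MatDp(dist2) in all 9 measured cases, against 6485 of all 12483 measured genes. At least 2-fold higher were 2 of the 9, and their median log2 ratio was 0.59. Scg3, a granin that sorts cargo into granules, had 1756.9 in MatDp(dist2) and 714.5 in PatDp(dist2), 2.46-fold. Scg3 lies on chromosome 9, as do Foxl2, Drd2 and Aldh1a2 of the other axis lists. Neurod1, Insm1, Lhx3, Nr5a1, Oxt and Scg5 lie on chromosome 2, proximal of H13. Whether any of these genes of chromosomes 9 and 2 is in a duplicated part was not determined. Pcsk1n, the inhibitor of the convertase that cuts Pomc, had 1525.1 in MatDp(dist2) and 668.2 in PatDp(dist2), 2.28-fold. Scg5 was 1.90-fold higher in MatDp(dist2), Vgf at least 1.69-fold and Chga 1.5-fold. Pcsk1, the convertase, lay below the floor in both heads, at 75.8 in MatDp(dist2) and 94.7 in PatDp(dist2). These genes serve neurons as well as endocrine cells.

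Receptors on pituitary cells were mostly too dim to read, with 9 of 13 below the floor in both heads, among them the receptors for ghrelin (Ghsr), gonadotropin releasing hormone (Gnrhr), thyrotropin releasing hormone (Trhr) and dopamine (Drd2). Of the 4 measured receptors 2 were bounds, and none reached 2-fold as a value or as a bound. The somatostatin receptor Sstr2 was at least 1.63-fold higher in MatDp(dist2), with 304 against 137.8, below the floor, in PatDp(dist2). Nr3c1, the glucocorticoid receptor, had 1543.5 in MatDp(dist2) against 1747.7 in PatDp(dist2), and the estrogen receptor Esr1 was at least 1.08-fold higher in PatDp(dist2). Crhr1, the corticotroph receptor for corticotropin releasing hormone, had 385.2 in MatDp(dist2) and 351.5 in PatDp(dist2).

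Of 4 measured receptors through which pituitary hormones act, 0 reached 2-fold as a value or as a bound, and their median log2 ratio of -0.04 rests on 2 bounds. These are Mc2r, the corticotropin receptor, with 78.3 in MatDp(dist2) against 193 in PatDp(dist2), and Tshr, the thyrotropin receptor, with 121 in MatDp(dist2) and 192.6 in PatDp(dist2), both below the floor in MatDp(dist2). Ghr, the growth hormone receptor, was 1.65-fold higher in PatDp(dist2) on its brightest probe set, with 1767.6 in MatDp(dist2) and 2923.1 in PatDp(dist2). A further Ghr probe set was 1.54-fold higher in PatDp(dist2), and the third lay below the floor in both. In RNA from the whole head, the signals of the hormone gene and its receptor gene therefore differed in opposite directions, and a relation between them was not tested. Mc3r, a melanocortin receptor gene of chromosome 2 distal of H13, had 221.9 in MatDp(dist2) and 197.5 in PatDp(dist2).

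Genes of pituitary stem and support cells, most of which many other head tissues also express, divided evenly. Of 7 measured, 1 was at least 2-fold higher in each direction. Cyp26b1, a retinoic acid degrading enzyme, had 613.3 in MatDp(dist2) against 241.8 in PatDp(dist2), and S100b, made by folliculostellate cells and widely by glia, had 511.2 in MatDp(dist2) and 1292.2 in PatDp(dist2). Sox9 was 1.65-fold and Aldh1a2 1.24-fold higher in MatDp(dist2), and Epcam was 1.16-fold higher in PatDp(dist2). The epithelial gene Cdh1 had 2375.8 in MatDp(dist2) and 2400.1 in PatDp(dist2).

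**Figure D3:**
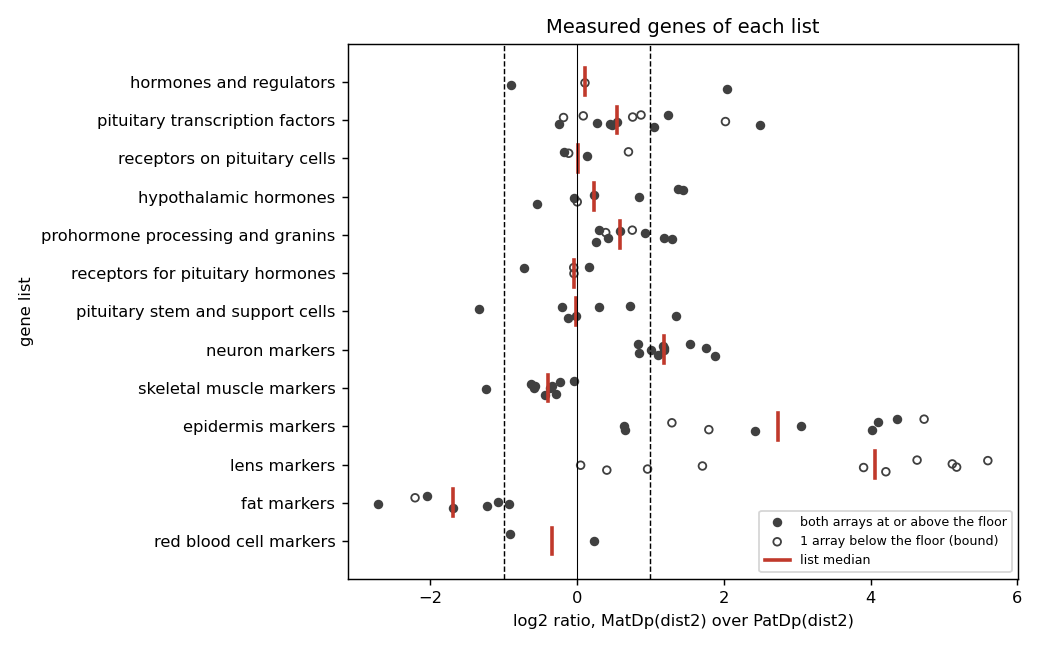
Log2 ratio of signals, MatDp(dist2) over PatDp(dist2) (horizontal axis), of each measured gene, by list; filled points reached the floor in both heads, open points are bounds, red bars are list medians and dashed lines mark 2-fold. Granin and processing genes lie to the right of 0 with a median of 0.59, neuron markers have a median of 1.18, and fat markers a median of -1.69.

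Markers of other tissues of the head also differed, and the labelled tissue lacked a readable lens signal in PatDp(dist2), where 0 of 10 lens markers reached the floor, against 10 of 10 in MatDp(dist2). All 10 neuron markers were brighter in MatDp(dist2), 8 of them at least 2-fold, and their summed signal was 33698.4 in MatDp(dist2) and 14930.3 in PatDp(dist2), 2.26 times. With signals below the floor raised to it, 10 epidermis markers summed to 55748.2 in MatDp(dist2) and 8286.65 in PatDp(dist2), at least 6.73 times, with 3 of them below the floor in PatDp(dist2). On the same footing, 10 lens markers summed to 34579.2 in MatDp(dist2) against 1870.5 in PatDp(dist2), which is the floor of all 10. Toward PatDp(dist2) lay 10 of 10 skeletal muscle markers, 1 of them at least 2-fold, with summed signals of 109056 in MatDp(dist2) against 143619 in PatDp(dist2). All 7 measured fat markers were also brighter in PatDp(dist2), 6 of them at least 2-fold, with sums over 8 listed genes, raised to the floor in the same way, of 30203.4 in MatDp(dist2) against 76266.1 in PatDp(dist2). By any amount, 6485 of all 12483 measured genes were brighter in MatDp(dist2) and 5997 in PatDp(dist2). Of 6 red blood cell markers 2 were measured, neither of them 2-fold apart. Alas2 was 1.18-fold higher in MatDp(dist2) and Slc4a1 1.88-fold higher in PatDp(dist2). The 6 summed to 3073.1 in MatDp(dist2) against 3147.1 in PatDp(dist2) with the other 4 at the floor. Because the 2 measured markers went opposite ways, these sums do not show equal blood content. The part of these tissue differences in the values of Gh, Pomc and the axis lists was not tested, and neither was that of how much of the pituitary each head sample contained.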

How the data were processed

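The deposited values are a linear signal intensity for each of 45101 probe sets on 2 arrays, 1 per genotype. The authors made these intensity values with MAS5 and GCOS, per the submitters' processing notes, where no version is named. Trimmed of 2% of probe sets at each end, the mean was 500.002 on each array, so the arrays had been scaled to a common level. MAS5 subtracts mismatch probes and gives noisy values for dim probe sets. In place of detection calls, which were not used, stood the floor of 187.05, the midpoint of the 50th percentiles of the arrays.

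Names came from the platform annotation, and symbols were brought up to date through the gene ID in the RefSeq table of GRCm38.p6. Of 34945 probe sets with 1 symbol, 34741 had a gene ID in that table, 932 with several symbols and 9160 with none stayed unnamed, and 64 controls were left out. Each gene outside the 9 members stands for its brightest probe set by mean log2 signal. Of 139 entries in the 12 other lists, 124 had a probe set. Members and lists were chosen with earlier results of these data known. The text gives the signals of every member probe set, and names those of Gh and Pomc. In each of the 6 axis lists it names up to 5 genes with the largest ratio and every gene at least 2-fold apart. Further genes of the axis lists were chosen after their values were seen (Otx2, Isl1, Foxl2, Gata2, Egr1, Nr5a1, Tbx19, Pitx1, Lhx3, Hesx1, Lhx4, Six6, Neurod4, Ghrh, Pcsk1, Ghsr, Gnrhr, Trhr, Drd2 and Cdh1). The tissue marker lists are given by counts, medians and sums, and only their 2 measured red blood cell markers are named.

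The ratio is MatDp(dist2) over PatDp(dist2), with a fixed threshold of 2-fold and no test, and sums of signals add different probe sets, with signals below the floor raised to it. The steps were tried on simulated arrays with changes placed only in bright probe sets, which does not show how changes in dim ones are read. They were run in Python 3.11.15 with numpy 2.4.6, pandas 2.3.3 and statsmodels 0.14.6. The alternatives were 3 other scalings, 2 other floors, an offset of 100, thresholds of 1.5 and 3, and the mean over probe sets.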

Additional observations from a re-analysis of the deposited data

How the results depend on the processing

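All 4 Gh probe sets stayed at least 3.36-fold higher in MatDp(dist2) under the 8 alternatives of scaling, floor, offset and threshold that apply to single probe sets, with log2 ratios between 1.75 and 2.31, and the mean over the Gh probe sets gave 2.07. Some of these alternatives could not change a Gh ratio. The thresholds of 1.5 and 3 do not enter a ratio, and the floor at the 30th percentile lies below every Gh signal. The count of 1 pituitary gene at least 2-fold apart was 2 with quantile normalization, which added Pomc, 2 with the floor at the 30th percentile, which added Ghrhr, and 2 at the 1.5-fold threshold, which added Pomc. Pomc kept its direction, with log2 ratios between -1.01 and -0.56. Of the axis lists, 10 genes were 2-fold apart, against 19 at 1.5-fold (17 higher in MatDp(dist2), 2 in PatDp(dist2)) and 2 at 3-fold (2 higher in MatDp(dist2), 0 in PatDp(dist2)). The floor at the 30th percentile gave 14 of 58 measured genes, 12 higher in MatDp(dist2) in place of 9 and 2 in PatDp(dist2) in place of 1. With the floor at the 70th percentile, 26 genes were measured in place of 44, and 7 were 2-fold apart, 6 higher in MatDp(dist2) and 1 in PatDp(dist2). The 126 recomputed values include counts, which have no sign. The only ratios among them at least 2-fold apart at the main settings were those of Gh, and these kept their sign. No paired analysis was possible because each genotype has 1 array, and no replicate could be left out. Signals below the floor limit what can be said of Prl, Cga, Tshb, Lhb and Fshb.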

Other observations

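With the floor at the 30th percentile, 3 further hormone genes were measured. Cga was at least 1.17-fold higher in MatDp(dist2), a bound, since its PatDp(dist2) signal stayed below that floor too. Tshb was 1.06-fold and Lhb 1.14-fold higher in PatDp(dist2). Prl and Fshb stayed below that floor of 75.1 in both heads.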
